A study of Mus musculus with 3 samples.

Results

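The sites described here are the 5-methylcytosine (m5C) sites of the mouse 1-cell embryo that lie in genes with no called m5C site in an oocyte. They were chosen by a rule on the deposited site lists: a site of the 1-cell embryo list was taken when its Ensembl gene identifier stood in neither the list of germinal vesicle (GV) oocytes nor that of metaphase II (MII) oocytes. The rule gave 1926 of the 24996 embryo sites, in 1136 of the 6407 genes of the embryo list. Membership therefore rests on which oocyte sites were called, and the counts that follow from the rule are a description with no test.

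RNA bisulfite sequencing (BS-seq) reads unmethylated C as T, so that the m5C level of a site is the share of its reads that kept C. The stages were GV oocytes, MII oocytes and embryos of 1 cell, all from wild-type C57BL/6J mice, with 1 deposited library for each stage that was made from pooled cells. The females were 7 to 8 weeks old. GV oocytes, which are fully grown and have not resumed meiosis, were taken 48 h after a dose of 10 IU of PMSG (pregnant mare serum gonadotrophin), and MII oocytes, which are ready for fertilization, 12 h after 5 IU of hCG (human chorionic gonadotrophin) that followed 10 IU of PMSG. The 1-cell embryos came from mated females 24 h after 5 IU of hCG, which followed 5 IU of PMSG. The methods of the study name other doses, the texts on the conversion differed between oocytes and embryo in the labels, and stage and library cannot be told apart. With 1 library per stage there was no replicate error, so no p-value is given between stages, and the 95% intervals printed below cover counting error, or the spread over sites, only. Sites of a gene share reads and are not replicates.

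In mammals mRNA m5C is known to be written mainly by NSUN2, at Type I sites with guanines just after the methylated C, and by NSUN6, at Type II sites that open the motif CUCNA (N is any base). NSUN4 methylates the 12S ribosomal RNA of mitochondria, and TRDMT1 (DNMT2) acts on tRNA. The oocyte stores maternal mRNA, transcription is low from the fully grown oocyte until the embryonic genome is switched on, and the 1-cell embryo carries mostly maternal RNA. The lists hold called sites only: at least 20 reads, a level of at least 10% and at least 5 unconverted reads. A gene without an oocyte site can therefore be unmethylated there, methylated under these limits, or poorly covered, and the lists do not tell these apart.

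The sequences around the sites that the results turn on are given in the sense of the transcript, spliced, as DNA letters of the GRCm38 genome with exons of GENCODE release M21. Capitals mark the m5C site and the 4 bases after it. Sites in untranslated regions (UTRs) are shown with 12 bases on each side and the others with 20. The deepest sites, 1 per gene, are shown to let their downstream bases be compared with those of the highest-level sites:

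mt-Rnr1, chromosome MT, position 911, plus strand, 12S ribosomal RNA: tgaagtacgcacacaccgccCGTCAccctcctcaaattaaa
Omt2b, chromosome 9, position 78328689, plus strand, CDS, exon 2: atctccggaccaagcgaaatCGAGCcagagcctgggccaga
Parp12, chromosome 6, position 39117886, minus strand, CDS, exon 1: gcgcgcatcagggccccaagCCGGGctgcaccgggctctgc
Rgs2, chromosome 1, position 144001522, minus strand, 3′ UTR, exon 5: tgggtagtgaatCAGGAagtcagca
Padi6, chromosome 4, position 140732247, minus strand, CDS, exon 11: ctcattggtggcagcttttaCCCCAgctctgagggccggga
Pkm, chromosome 9, position 59670714, plus strand, CDS, exon 6: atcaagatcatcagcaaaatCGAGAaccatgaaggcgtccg
Pabpn1l, chromosome 8, position 122622437, minus strand, CDS, exon 1: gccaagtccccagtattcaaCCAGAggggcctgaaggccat
Oosp1, chromosome 19, position 11688722, minus strand, CDS, exon 2: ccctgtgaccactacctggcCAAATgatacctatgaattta
Khdc1b, chromosome 1, position 21386060, plus strand, 3′ UTR, exon 3: taaattgacaatCAAGGgtattgga
Eef1a1, chromosome 9, position 78479527, minus strand, CDS, exon 6: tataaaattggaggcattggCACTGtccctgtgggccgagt

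The sites whose level had the highest lower 95% bound, again 1 per gene, were the following. Rsu1 is the Type II site among them, and the sequence at the site of Pura is not printed:

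Mad2l2, chromosome 4, position 148145479, plus strand, 3′ UTR, exon 8: ggccccagactcCAAGTgctcttat
Spata20, chromosome 11, position 94480605, minus strand, CDS, exon 14: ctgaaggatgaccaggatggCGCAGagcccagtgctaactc
Aste1, chromosome 9, position 105401600, plus strand, CDS, exon 3: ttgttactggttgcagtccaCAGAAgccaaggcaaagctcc
Klhl26, chromosome 8, position 70455581, minus strand, CDS, exon 2: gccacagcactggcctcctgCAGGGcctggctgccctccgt
Slc5a8, chromosome 10, position 88886410, plus strand, CDS, exon 1: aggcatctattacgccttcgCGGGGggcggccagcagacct
Rsu1, chromosome 2, position 13224333, minus strand, CDS, exon 4: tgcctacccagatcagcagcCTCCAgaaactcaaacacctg
Ccdc107, chromosome 4, position 43495356, plus strand, CDS, exon 4: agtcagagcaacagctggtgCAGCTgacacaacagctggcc
Pcmtd1, chromosome 1, position 7089160, plus strand, 5′ UTR, exon 1: cgggggctgggaCGGGGcttcaggg
Slc2a9, chromosome 5, position 38350831, minus strand, 3′ UTR, exon 12: ggggaaagggaaCAGGTtgccttct

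The other 4 Type II sites with the highest lower bound show the motif from the methylated C on:

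Ndufa4l2, chromosome 10, position 127515447, plus strand, CDS, exon 2: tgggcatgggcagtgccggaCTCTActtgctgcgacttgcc
Tmem11, chromosome 11, position 60865050, minus strand, CDS, exon 2: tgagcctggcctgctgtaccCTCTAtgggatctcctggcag
Nfkbil1, chromosome 17, position 35235081, minus strand, CDS, exon 2: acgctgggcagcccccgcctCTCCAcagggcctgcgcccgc
Nek5, chromosome 8, position 22073937, minus strand, CDS, exon 19: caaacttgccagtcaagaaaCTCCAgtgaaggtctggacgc

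Besides mt-Rnr1, 6 sites combined a level of at least 50% with at least 50 reads. They were picked after their values were seen, because few sites were both high and well covered:

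Dnmt3l, chromosome 10, position 78050923, plus strand, CDS, exon 5: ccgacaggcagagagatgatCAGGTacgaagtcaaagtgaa
Mat2a, chromosome 6, position 72434367, minus strand, CDS, exon 9: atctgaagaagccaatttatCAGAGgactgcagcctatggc
Mrpl4, chromosome 9, position 21002956, plus strand, CDS, exon 1: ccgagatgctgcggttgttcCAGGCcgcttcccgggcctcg
Hid1, chromosome 11, position 115349929, minus strand, CDS, exon 16: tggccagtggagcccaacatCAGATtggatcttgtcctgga
Mydgf, chromosome 17, position 56176991, minus strand, CDS, exon 6: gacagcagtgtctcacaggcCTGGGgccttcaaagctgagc
Junb, chromosome 8, position 84978586, minus strand, 5′ UTR, exon 1: cgcctttacgcaCAGCTgccaactg

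None of the sites of the set (0 of 1926) stood at a position that an oocyte list holds. The rule nearly fixes this count, so it is a check of the selection and not a result. The gene Map2k7 (3 sites) had its symbol in an oocyte list under another identifier, and 26 genes with 39 sites overlapped an oocyte-listed gene on the same strand, so that reads could have been assigned to the partner. Just outside the rule stood 1368 embryo genes with exactly 1 oocyte site. Those oocyte sites had a median coverage of 143 reads and a median level of 20.0%, and 15.0% of their 2158 records in the 2 oocyte lists lay under a level of 12%. Among fixed marker lists, 14 of 16 oocyte markers had an embryo site, against 1 of 15 cumulus and granulosa markers, 4 of 11 oviduct markers, 1 of 14 sperm markers and 0 of 8 blood markers. These are counts of genes with a called site, not expression levels. In the set itself stood 3 of the oocyte markers (Padi6, Oosp1 and Zp2) and 2 of the oviduct markers, Epcam with 1 site at 22.9% of 35 reads and Krt8 with 1 at 45.0% of 20 reads.

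Most of the sites were weakly methylated and modestly covered. Their median coverage was 52 reads (95% interval 50 to 54) and their median level 20.5% (20.0 to 21.3), with an interquartile range of 14 to 32.4%. Embryo-only sites in genes that do have an oocyte site (14722 sites) had a median of 57 reads and 19.2% (19 to 19.4), and sites also called in an oocyte (8348 sites) 65 reads and 39.1% (38.2 to 40.0). Thus the sites of genes without an oocyte site resembled the other embryo-only sites in level and lay far under the sites that oocytes share. Of the 1926 sites, 10.4% reached a level of 50% (9.11 to 11.9), against 6.17% and 36.7% in the other classes.

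**Figure D1:**
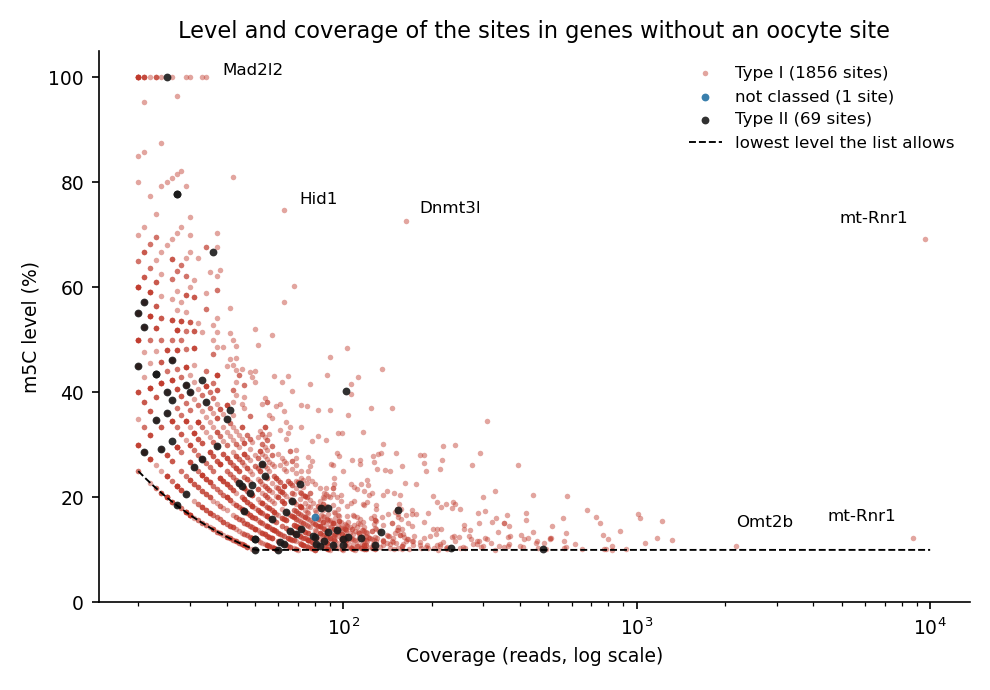
m5C level (%) against coverage (reads, log scale) of the 1926 sites in genes without an oocyte site, with Type II sites in black, Type I sites in red and 1 site on an unplaced scaffold in blue. The dashed line is the lowest level that a minimum of 10% and of 5 unconverted reads allows, and the upper right holds only mt-Rnr1 at 69.1% of 9587 reads.

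The level depended on the coverage, in part through the limits of the list, since 5 unconverted reads of 20 are already 25%. Within coverage classes the medians were 43.5% at 20 to 29 reads (41.4 to 45.8, 381 sites), 25.6% at 30 to 49 reads (535 sites), 16.0% at 50 to 99 reads (656 sites) and 12.9% at 100 reads or more (354 sites). The other embryo-only sites had 39.1%, 25%, 16.4% and 13.4% in the same classes. The intervals overlapped in the 3 deeper classes and did not at 20 to 29 reads, where the other sites reached 38.1 to 40.0%. Sites shared with an oocyte stayed above both in each class, from 53.6% to 31.2%. A share of 15.1% of the sites was called on 5 to 7 unconverted reads, close to the 15.2% of the other embryo-only sites and above the 5.09% of the shared sites.

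**Figure D2:**
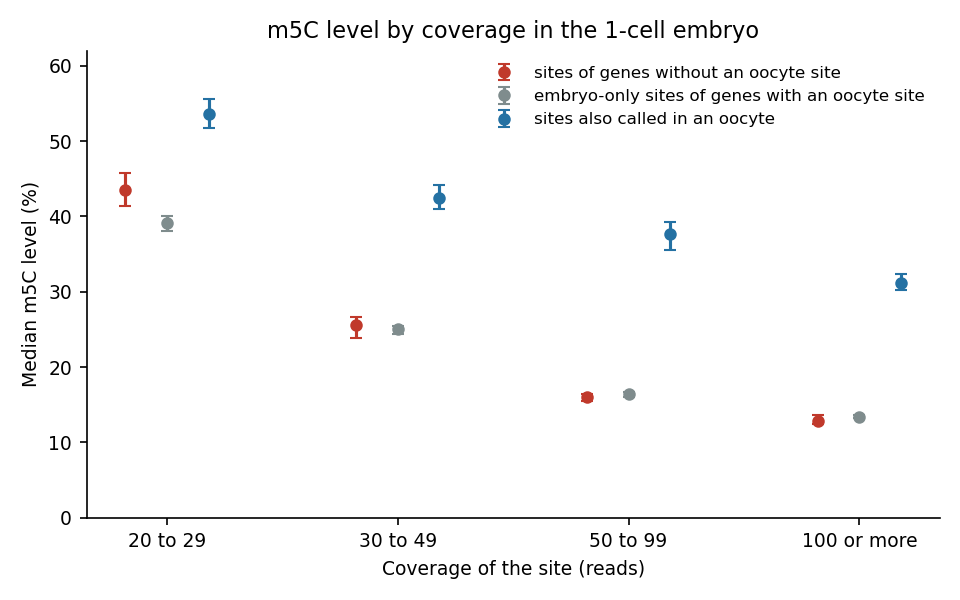
Median m5C level (%) of embryo sites by coverage class, with 95% intervals of the median over sites. Sites of genes without an oocyte site (red) and other embryo-only sites (grey) lie close together from 30 reads on, and sites also called in an oocyte (blue) lie higher in all 4 classes.

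At the deepest sites of 9 of the 10 deepest genes the level lay between 10.2% and 16.8%. The other was mt-Rnr1, the 12S ribosomal RNA of mitochondria, where 6627 of 9587 reads were unconverted at position 911, a level of 69.1% (68.2 to 70.0). A second site, at position 963, had 12.3% of 8745 reads (11.6 to 13.0). They were the only sites on the mitochondrial genome in the 3 lists, as the GV and MII oocyte lists hold 0 there. Because the labels name polyadenylated RNA and the methods RNA depleted of ribosomal RNA, the amount of 12S RNA in each library is not known.

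Omt2b, an oocyte maturation transcript, followed with 10.7% of 2178 reads (9.43 to 12.1). Parp12, a mono-ADP-ribosyltransferase, had 11.9% of 1316 reads, and Rgs2, a brake on G protein signalling, 15.5% of 1219 reads in its 3′ UTR. Padi6, a maternal protein of the cytoplasmic lattices, had 12.2% of 1174 reads and, at a second site, 16.1% of 1022 reads. Pabpn1l, an oocyte poly(A)-binding protein, had 16.8% of 1007 reads (14.5 to 19.2), the highest of the nuclear-encoded genes in this set of 10. Pkm, the glycolytic pyruvate kinase, had 11.3% of 1067 reads, Oosp1, an oocyte-secreted protein, 10.2% of 922 reads, Khdc1b, a KH-domain gene of oocytes, 13.6% of 877 reads, and the translation elongation factor Eef1a1 10.8% of 822 reads. Of the 32 sites with 500 reads or more, in 27 genes, 30 lay under 20%.

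At the other end, 23 sites in 22 genes (1.19%, 0.758 to 1.79) were unconverted in every read, but none had more than 34 reads. The other embryo-only sites had 0.346% such sites (0.258 to 0.455), and the shared sites 5.71%. Mad2l2, a subunit of the translesion polymerase zeta, had 34 of 34 unconverted reads, which puts its level at 89.7% or more. Spata20 had 33 of 33, Aste1 30 of 30, Klhl26, of the family of CUL3 adaptors, 29 of 29, and Slc5a8, a monocarboxylate transporter, 26 of 26. Rsu1, a Ras suppressor, had 25 of 25 at a Type II site, and Ccdc107 had 24 of 24. Pcmtd1, Pura and the urate transporter Slc2a9 had 23 of 23 each, with a lower bound of 85.2%. At this depth these levels cannot be told from one another.

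Between these ends stood the sites that were both high and covered. In Dnmt3l, a cofactor of the de novo DNA methyltransferases, 119 of 164 reads were unconverted at the site in exon 5, a level of 72.6% (65.1 to 79.2), while its other site had 13.9% of 216 reads. Hid1, a gene of Golgi and secretory granule traffic, had 74.6% of 63 reads (62.1 to 84.7) and 5 further sites between 21.7% and 54.5%. Mat2a, which makes the methyl donor S-adenosylmethionine, had 60.3% of 68 reads and a second site at 17.2% of 93 reads. In Mrpl4, a protein of the mitochondrial ribosome, adjacent cytosines differed, with 57.1% of 63 reads at the one printed above (44.0 to 69.5) and 17.2% of 64 reads at its neighbour (8.90 to 28.7). Mydgf, a secreted growth factor, reached 50.9% of 57 reads. Junb, an AP-1 transcription factor, had 52.0% of 50 reads and 4 more sites in the same 5′ UTR, from 13.6% to 38.2%.

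Few genes of the set held many sites. A single site was all that 696 of the 1136 genes had (61.3%, 58.4 to 64.1), against 22.8% (21.7 to 24.0) of the other 5271 genes of the embryo list, and 39 genes had 5 or more. The mean was 1.70 sites per gene, and 4.38 in the other genes. A gene with fewer embryo sites may have fewer chances of a site in any list. Whether this difference goes with the rule was not tested. Of the sites, 4.78% lay within 10 nt of another site of the gene, against 10.1% in the other genes. Among genes with 2 sites or more the shares were 7.48% and 10.6%.

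Cyfip2, a subunit of the WAVE actin regulator, led with 13 sites on chromosome 11, 9 in the CDS and 4 in the 3′ UTR, from 11.8% to 48.3% on 28 to 85 reads. Its highest levels were 48.3% of 29 reads in the 3′ UTR and 44.4% of 45 reads in exon 15, and adjacent cytosines in exon 26 both had 10 of 46 reads unconverted. Zfp280b, a zinc finger gene, had 8 sites, 4 in the CDS and 4 in the 3′ UTR, from 10.2% to 27.5%. Mad1l1, of the spindle assembly checkpoint, had 8 sites in 8 different exons, from 11.8% to 56.1%, the highest being 23 of 41 reads in exon 12 (39.7 to 71.5). Its sites were thus spread over the coding sequence.

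Pou4f1, a POU transcription factor, had 7 sites, from 10.3% to 21.7% on 46 to 184 reads, 3 of them in the 5′ UTR. Ankrd6, a regulator of Wnt signalling, had 7, of which 1 stood out at 37.3% of 75 reads (26.4 to 49.3) and the others ran from 10.1% to 23.1%. In Mydgf 6 of 7 sites lay in the last exon, from 10.1% to 50.9%. In D6Wsu163e the 7 sites included 1 Type II site at 20.8% of 48 reads, and the sites 3 nt apart in exon 14 both had 15 of 40 reads unconverted. Tfpt, a subunit of the INO80 chromatin remodeler, had 6 sites from 11.2% to 22.3% on 67 to 224 reads, and Sgf29, the Tudor subunit of the SAGA complex, 6 from 10.3% to 32.1%. Ccdc117 had 6 as well, with 30.0% of 240 reads and 11.3% of 319 reads in exon 1. In Zfp280b, Pou4f1 and Tfpt the intervals of all sites of the gene overlapped, while in the other 7 of these genes at least 1 pair of sites had intervals apart.

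The genes of the set were shorter than the other genes of the embryo list. By the transcript with the longest coding sequence, the median length was 2328 nt (2200 to 2447, 1130 genes) against 3255 nt (3188 to 3330, 5265 genes), the median number of cytosines 538 against 816, and the median GC content 48.0% against 51.3%. Over the whole embryo list 17.7% of the genes had no oocyte site. This share was 42.4% (37.2 to 47.7) for transcripts under 1000 nt, 25.2% from 1000 to 2000 nt, 15.9% from 2000 to 4000 nt and 11.2% (9.89 to 12.6) from 4000 nt. It also fell with the coverage of the deepest embryo site of the gene, from 24.7% at 20 to 49 reads to 9.28% at 200 reads or more.

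**Figure D3:**
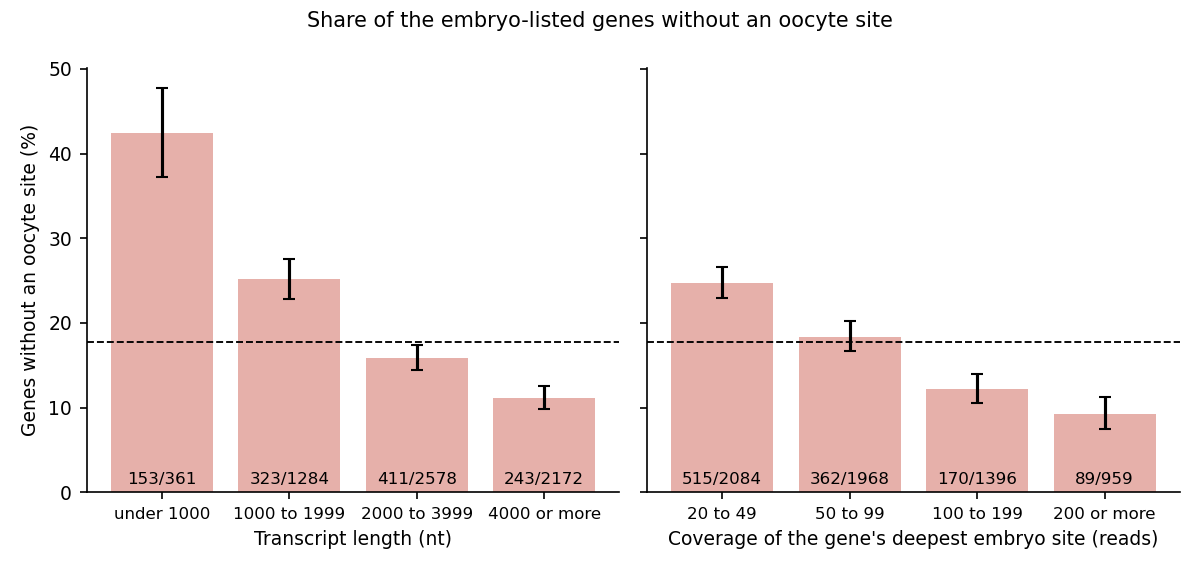
Share of embryo-listed genes without an oocyte site (%), by transcript length in nt (left) and by the coverage of the deepest embryo site of the gene in reads (right), with exact 95% intervals and gene counts in the bars. The dashed line is the share over all genes, 17.7%, and both panels fall from left to right, from 42.4% to 11.2% and from 24.7% to 9.28%.

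Gene groups differed in how many of their embryo-listed genes lacked an oocyte site. Among the fixed lists with at least 8 embryo-listed genes, those of the ribosome and of the respiratory chain had the highest shares. Of 81 ribosomal protein genes with an embryo site, cytosolic and mitochondrial, 35 (43.2%, 32.2 to 54.7) had no oocyte site, against the 17.7% of all genes. The list was drawn by symbol and also took in genes of other function, such as Rps6ka kinases and RNase P subunits. Strictly named cytosolic ribosomal proteins, separated after the values were seen, gave 15 of 30 and mitochondrial ones 18 of 44. Their transcripts were short, and their share was 15 of 31 under 1000 nt, 12 of 27 from 1000 to 2000 nt and 8 of 23 from 2000 nt, where all genes had 42.4%, 25.2% and 13.8%. In the shortest class the ribosomal genes were therefore near the share of all short genes, and in the longer classes above it.

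Within this group Rpl24 had the clearest site, with 34.6% of 309 reads (29.3 to 40.2) in the CDS. Rps10 had 13.5% of 443 and 15.9% of 88 reads. Rpl4 had a Type II site at 10.2% of 481 reads, and Rpl12 a Type II site at 29.7% of 37 reads beside Type I sites at 21 of 42 and 27 of 207 reads. Mrpl48 had 15.1% of 352 and 11.1% of 63 reads. The 57 sites of the group had a median level of 17.6%. Cytosolic ribosomal proteins have many near-identical pseudogene copies, so the reads behind these sites are uncertain in origin.

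Of 48 genes of the respiratory chain, 21 (43.8%, 29.5 to 58.8) had no oocyte site, with 36 sites at a median level of 15.7%. Atp5a1, the alpha subunit of ATP synthase, had 5 sites in its CDS, 48.5% of 103 reads (38.6 to 58.6), 21.2% of 118, 16.3% of 135, 13.7% of 95 and 11% of 100 reads, the last 2 of Type II. Cox5a, of cytochrome c oxidase, had 12.0% of 308 reads, Ndufv1, of complex I, 3 sites from 10.0% to 14.5%, and Uqcrh, of complex III, 10.7% of 214 reads. By length, 10 of 22 genes under 1000 nt, 7 of 17 from 1000 to 2000 nt and 4 of 9 from 2000 nt had no oocyte site. All genes had 42.4%, 25.2% and 13.8% in these classes. The group was therefore near the share of all short genes in the shortest class and above it in the longer classes, which hold few genes.

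Of 43 histone and high-mobility-group genes, 17 (39.5%, 25 to 55.6) had none. The nucleosome-binding Hmgn1 had 10.1% of 774 reads in the CDS and 13.6% of 59 in the 3′ UTR, and Hist1h2ag 15.1% of 352 and 25% of 100 reads. Hist1h4n had 13.6% of 125 and 11.9% of 118 reads, and the linker histone Hist1h1d 10.9% of 183 and 43.5% of 23 reads. Canonical histone genes are near-identical copies whose mRNAs mostly lack a poly(A) tail, and reads can be split between them. Canonical histones alone, separated after the values were seen, gave 13 of 26. By length, 9 of 20 genes of the whole list under 1000 nt, 4 of 11 from 1000 to 2000 nt and 4 of 12 from 2000 nt had no oocyte site. All genes had 42.4%, 25.2% and 13.8% in these classes, so the shortest class was again near the share of all short genes. The longer classes lay above it but hold few genes.

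Noncoding genes were frequent in the set for their number. Of the embryo-listed genes, 10 of 14 short structural RNA genes (71.4%, 41.9 to 91.6), 25 of 41 pseudogenes (61.0%, 44.5 to 75.8) and 37 of 122 long noncoding RNA genes (30.3%, 22.3 to 39.3) had no oocyte site, against 1060 of 6216 protein-coding genes (17.1%, 16.1 to 18). These classes were not split by length, although short transcripts more often lacked an oocyte site. Genes with RIKEN or Gm names, which cross these classes, gave 104 of 305. Their share was 31 of 74 under 1000 nt, 32 of 84 from 1000 to 2000 nt and 36 of 139 from 2000 nt. All genes had 42.4%, 25.2% and 13.8% there, so the names were near this share in the shortest class and above it in the longer ones. Among the named structural RNAs Scarna2, a guide RNA of Cajal bodies, had 12.2% of 510 and 17.4% of 304 reads, and Rnu1b6, 1 of several U1 copies, had 27.2% of 114 reads. Terc, the telomerase RNA, had 14.1% of 71 reads. The pseudogenes Gm8750 and Gm8752 each had a pair of sites at the same spacing, with 8 unconverted reads at every one, of 43 and 33 reads in Gm8750 and of 48 and 43 reads in Gm8752, and reads of such copies cannot be told apart. The single site on Y, 12.7% of 55 reads in Gm47283, lies where X and Y share sequence. The noncoding genes here were chosen after their values were seen.

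Shares with intervals below the 17.7% of all genes were those of chromatin modifiers, 3 of 86 (3.49%, 0.725 to 9.86), and of small GTPase regulators, 3 of 90 (3.33%, 0.693 to 9.43). Both groups have long transcripts, with medians of 5230 and 5194 nt, but from 2000 nt on they had 2 of 76 and 2 of 85 genes without an oocyte site, where all genes of that length had 13.8%. The 3 genes of the chromatin list were Dnmt3l, given above, Kdm8, with sites at 45.2% of 42 and 21.1% of 71 reads, and Setdb2 with 22.2% of 27 reads. This list was drawn by symbol and misses other chromatin genes without an oocyte site, such as Tfpt and Sgf29 above, Suz12, Jmjd1c, Prmt2 and Smyd5, so its share is that of the list and not of all chromatin genes. The 3 genes of the small GTPase list were Rgs2, Tbc1d19 and Rgs10. That list was also drawn by symbol. It took in Rgs genes, which act in G protein signalling, so its share too is that of the list and not of all small GTPase regulators. Kinases had 14 of 119 (11.8%, 6.58 to 19).

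**Figure D4:**
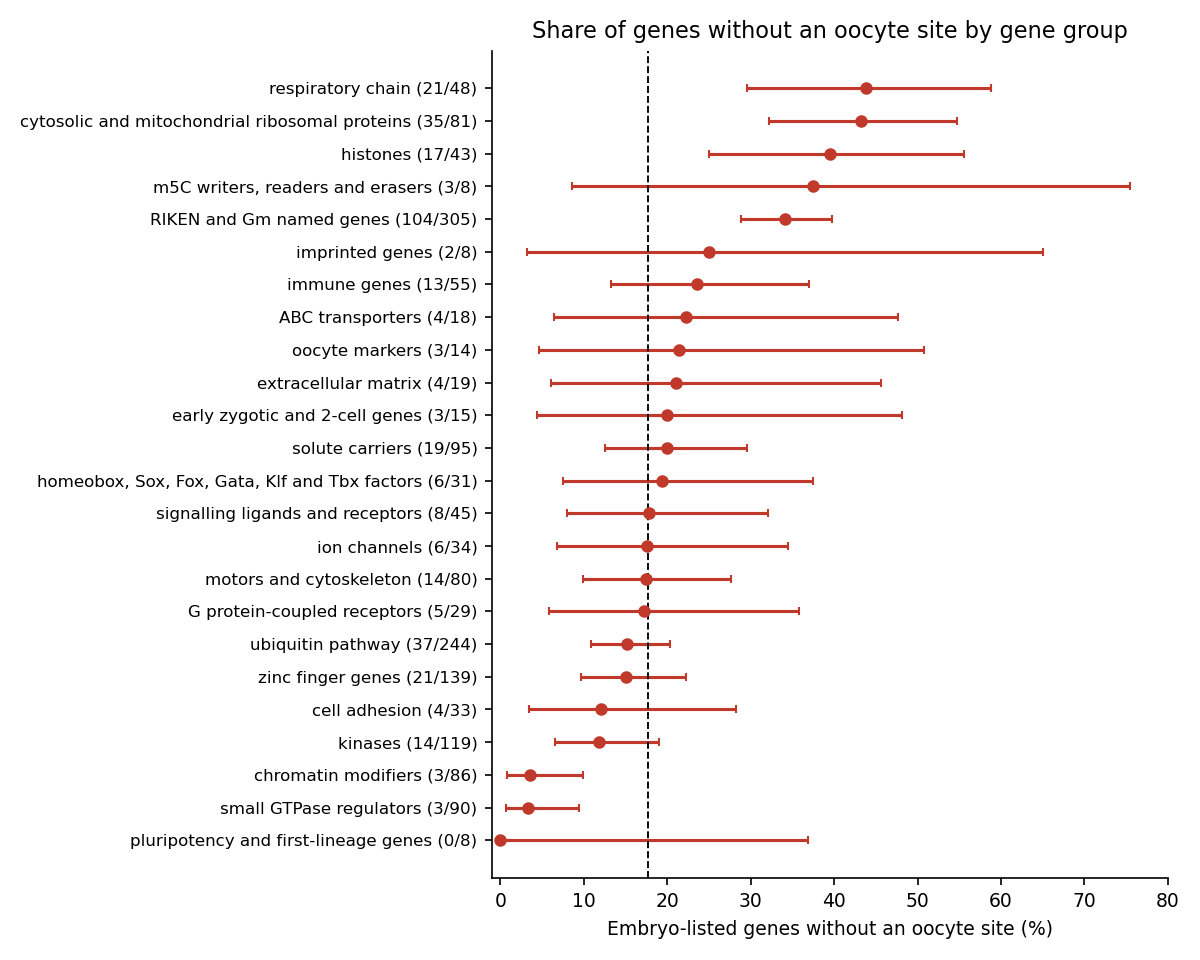
Share of embryo-listed genes without an oocyte site (%) for each fixed gene list with at least 8 embryo-listed genes, with exact 95% intervals and counts beside the names, and the share over all genes, 17.7%, as a dashed line. Respiratory chain (43.8%), ribosomal (43.2%), histone (39.5%) and RIKEN or Gm genes (34.1%) have intervals above the line, and chromatin modifiers (3.49%) and small GTPase regulators (3.33%) below it.

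The other groups had intervals that held 17.7%. Solute carriers gave 19 of 95, the ubiquitin pathway 37 of 244, zinc finger genes 21 of 139, motors and cytoskeleton 14 of 80, immune genes 13 of 55, signalling ligands and receptors 8 of 45, homeobox and related factors 6 of 31, ion channels 6 of 34, G protein-coupled receptors 5 of 29, cell adhesion 4 of 33, extracellular matrix 4 of 19 and ABC transporters 4 of 18. Early zygotic and 2-cell genes gave 3 of 15, namely Btg2, with 3 sites from 17.2% to 28.8%, Arg2 with 22.2% of 63 reads and Dppa2 with 19.5% of 41 reads. Pluripotency and first-lineage genes gave 0 of 8, with an exact 95% interval that reaches 36.9%. The Notch ligand Jag1 had 5 sites, from 10.2% of 491 reads to 20.4% of 98 reads. The tubulin gene Tubb5 had 4 from 11% to 19.1%, and the interferon-induced Ifit1bl2 4 from 12.1% of 799 to 16.0% of 332 reads. The proteasome gene Psmd4 had 12.8% of 767 and 11.6% of 567 reads.

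The m5C machinery itself was represented by 3 of its 8 embryo-listed genes (37.5%, 8.52 to 75.5), an interval that holds the 17.7% of all genes. Nsun4 had 27.2% of 217 reads in the CDS (21.4 to 33.6) and 22.6% of 93 reads in the 3′ UTR. Alyref, which binds m5C and exports mRNA, had 5 sites in its CDS, all between 10.4% and 12.1% on 83 to 115 reads, and Trdmt1 had 63.0% of 27 reads (42.4 to 80.6). Nsun2, Tet3, Ybx2, Ybx3 and Srsf2 had oocyte sites. Of 8 imprinted genes 2 had none, and both are known for expression from the paternal allele. Snrpn had 6 sites, of which 3 in the 5′ UTR each had 15 unconverted reads, at 30.6% of 49, 31.2% of 48 and 33.3% of 45 reads, and 3 in the CDS ran from 13.5% to 17.2%. Mest had 13.6% of 132 reads. Gnas, Kcnq1, Grb10, Osbpl5, Ube3a and Igf2r had oocyte sites.

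The position within transcripts was much like that of the other sites. In the CDS lay 69.7% of the sites (67.6 to 71.8), in the 5′ UTR 9.55%, in the 3′ UTR 14.8%, and in exons of noncoding transcripts 5.61%. The other embryo-only sites had 73.9%, 9.92%, 14.8% and 1.23%, so that the main difference was the larger noncoding part. The median levels were 19.6% in the CDS, 23.8% in the 5′ UTR and 22.7% in the 3′ UTR. Of the sites, 15.4% (13.8 to 17.1) lay in the leading 10% of the transcript, against 17.3% (16.7 to 17.9) of the other embryo-only sites and 17.4% of the shared ones.

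The sequence around the sites carried the marks of both classes. By the motif CUCNA, 69 sites were Type II (3.58%, 2.80 to 4.51), 57 of them with CUCCA. The share was 2.62% (2.37 to 2.89) of the other embryo-only sites and 4.85% (4.40 to 5.33) of the shared sites, while the motif opens at 1.66% of all cytosines in the transcripts of the set. The 1856 Type I sites had on average 1.82 guanines in the 4 bases that follow (SD 0.947 over sites, 95% interval of the mean ± 0.043), against 1.87 in the other embryo-only sites, 2.23 in the shared sites and 0.890 at all cytosines of the same transcripts. At the second base after the site 56.6% had guanine, against 58.0% and 68.0%. The mean of the set was 1.88 at 20 to 29 reads, 1.75 at 30 to 49 reads and 1.80 at 50 to 99 reads. At 100 reads or more it was 1.90, so the middle classes had the lowest means.

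**Figure D5:**
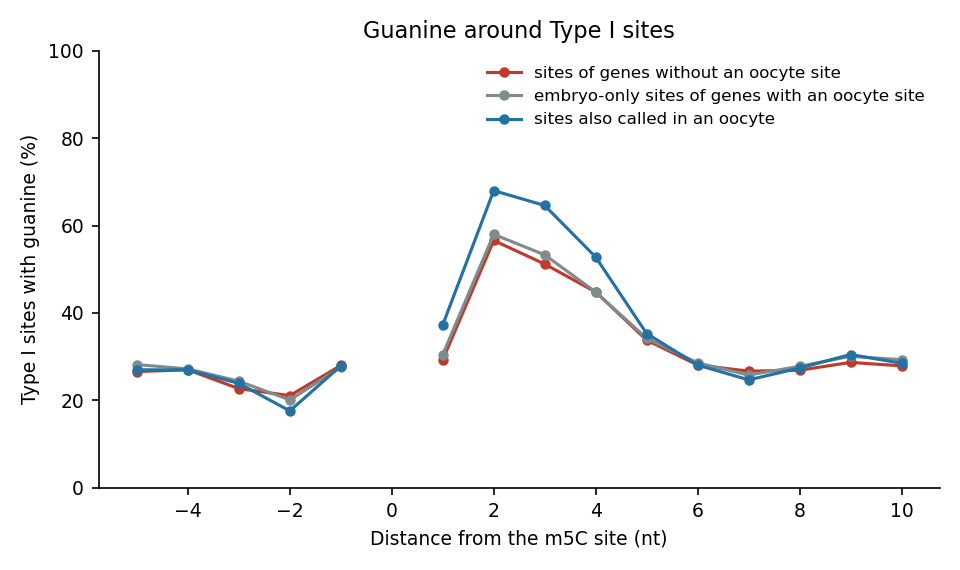
Share of Type I sites with guanine (%) by distance from the m5C site in nt, for sites of genes without an oocyte site (red), other embryo-only sites (grey) and sites also called in an oocyte (blue). The red and grey lines run together, with 56.6% and 58.0% at 2 nt after the site, below the blue line at 68.0%.

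The printed sequences show this spread. Slc5a8 and Pcmtd1 had guanine at all 4 positions and levels of 100%, whereas the deep sites of Padi6 and Oosp1 had none at 10.2% to 12.2%. The deep site of Parp12, however, had 3 at 11.9%. The printed sites were picked by depth or by level, so they do not show how guanines and level go together. Mt-Rnr1, a ribosomal RNA counted as Type I only because its site lacks CUCNA, had 1. Mad2l2 and Aste1, unconverted in all of 34 and 30 reads, had 1 each. Among the few printed mRNA sites, a level of 100% thus occurred with 4 guanines and with 1. Of the Type II sites printed, Ndufa4l2 and Tmem11 each had 21 of 27 unconverted reads (57.7 to 91.4), Nfkbil1 66.7% of 36 and Nek5 57.1% of 21 reads.

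The background of unconverted C that the authors' test used for each gene was recovered from the deposited p-values. It was the same to within 1% in all 439 genes of the set with several usable sites. Its median was 0.231% (0.220 to 0.246) in 1134 genes of the set and 0.379% (0.371 to 0.388) in 5245 other genes of the embryo list. The order was the same within numbers of sites per gene, with 0.204% and 0.279% for genes with 1 site and 0.258% and 0.344% for genes with 2 to 4. For genes with 5 or more it was 0.385% (0.318 to 0.474, 39 genes) and 0.462% (0.448 to 0.471), where the intervals overlapped. A background over 1% was found in 46 genes of the set (4.06%) and in 4.92% of the others. Among genes of at least 2 sites the lowest were Smc6 (0.0569%), with sites at 11.2% of 80 and 12.1% of 99 reads, and Hnrnpa2b1 (0.0672%), with 12.2% of 49 and 16.2% of 74 reads. The highest were Nkd2 (2.48%), whose sites in the 5′ UTR had 20 of 20 unconverted reads each, and Cd101 (2.26%), with 41.7% and 87.5% of 24 reads.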

How the data were processed

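Per the labels and methods of the study, reads were trimmed with cutadapt and Trimmomatic and aligned to converted sequence with HISAT2 and Bowtie2. The build was GRCm38 (mm10). The authors deposited a raw read count, the coverage, for every site. The m5C level was deposited as a fraction and is printed in percent. The deposited p-value comes from the authors' binomial test of a site against its gene, and served here only to recover that background, by a root search tested on simulated data. The embryo list differs in coverage and level from that in the supplement of the study, which was not used.

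Unconverted reads are level times coverage, whole to within 2.9e-05. Genes were matched by Ensembl identifier and annotated with GENCODE release M21, in which 4 of the gene identifiers (5 sites) were not found. Sites took their region from transcripts of the own gene, CDS before 5′ UTR, 3′ UTR and other exons. Shares and levels carry exact (Clopper-Pearson) 95% intervals and medians order-statistic ones. PCR reads are not independent molecules, so intervals cover counting error only.

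The members and the gene lists were chosen with earlier results of these data known. Named were the 10 genes with most sites, the 10 deepest sites, the 10 sites and 5 Type II sites of highest lower bound, up to 4 genes of a list by reads, and genes at the ends of the background. Other names were chosen after their values were seen. Python 3.11.15, pandas 2.3.3 and scipy 1.17.1 were used. Summed over sites, the embryo list held 2616279 reads and the oocyte lists 4475058 (GV) and 5285011 (MII).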

Additional observations from a re-analysis of the deposited data

How the results depend on the processing

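Of 42 alternatives over 6 results, 28 stayed within the 95% interval of the value reported, or within 1.5 times a count, and 14 did not. With at least 50 reads, 1010 sites in 621 genes remained, with a median level of 14.8% and 73.8% in the CDS. With at least 100 reads there were 354 sites in 259 genes, a median level of 12.9%, 78.5% in the CDS and a mean of 1.90 guanines after Type I sites. With a level of at least 25% there were 758 sites in 608 genes, a median level of 37.8% and 65.0% in the CDS. When only oocyte sites of at least 50 reads made an oocyte gene, the median level was 22.6%, over 2659 sites in 1530 genes. These settings take other sites by construction. One site per gene, matching by symbol, leaving out overlapping genes, CUCCA alone and the transcript of longest coding sequence alone moved none of the results they were run on, and the share of Type II sites stayed between 2.82% and 3.83%. Depth limits what the strongest sites show, since none of the sites unconverted in every read had more than 34 reads, and the lists give no depth where no site was called. No paired analysis was possible because each stage has 1 library.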
